A study of Homo sapiens with 4 samples.

Results

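The change of J2 enrichment compares, gene by gene, how strongly an antibody against double-stranded RNA (dsRNA) enriched RNA from cells exposed to an MPS1 inhibitor with how strongly it did so in control cells. It is the ratio of 2 ratios, J2 over Input with the inhibitor divided by J2 over Input with DMSO, and is given as log2. Equivalently, it is the log2 change of a gene in the J2 libraries minus its log2 change in the Input libraries. Counts of genomic regions were summed per Gene Name after the mitochondrial chromosome had been left out, and a gene was measured when it had at least 100 counts in the 2 J2 libraries and at least 100 in the 2 Input libraries. This held for 12651 of 27574 gene names (45.9%).

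The cells were NCI-H1944, an established human lung adenocarcinoma line labelled wild type (WT). They were given 100 nM BAY-1217389, an inhibitor of the kinase MPS1 (gene TTK), for 48 h and then kept without drug for 24 h, or were given DMSO, the solvent. Of each lysate, 10% was kept as Input (total RNA) and the rest was immunoprecipitated with the antibody J2. This gave an Input and a J2 library for DMSO and for the inhibitor (MPS1i), with 1 library per group, all from 1 cell line. No value has a replicate check, no test across replicates was possible, and every comparison is between these 4 libraries, not between conditions. Intervals are 95% intervals for counting error only.

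Double-stranded RNA forms where a transcript folds on itself, as inverted Alu repeats do, or where RNA is made from both strands of the genome. Sensors such as RIG-I (DDX58) and MDA5 (IFIH1) bind it and start an interferon response, and PKR (EIF2AK2) binds it and stops translation. MPS1 is a kinase of the spindle checkpoint, and its inhibition makes cells missegregate chromosomes. A change of enrichment sets the J2 library against the abundance of the same gene name in total RNA. Each library is scaled to its own total, so a change of all dsRNA together would not be seen.

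Outside the mitochondrial chromosome the Input libraries held 4829313 (DMSO) and 3865362 (MPS1i) counts and the J2 libraries 9733782 and 6641507. The MPS1i Input library stood apart, with a read in 484838 regions against 940740 in DMSO Input. Thinned to equal depth, the numbers were still 484838 and 847986, against 787581 and 885677 in the J2 pair. Its reads were thus concentrated in fewer regions, and its part in the changes below cannot be told apart from the treatment. The Input and J2 tables have different regions, and a gene name is that of the nearest gene on either strand. Of the counts of measured genes, 41.4% in Input and 42.0% in J2 lay on the strand of the named gene, 11.7% and 8.73% on the opposite strand, and 22.7% and 27.7% were annotated as intergenic. A change of enrichment can therefore set J2 reads of one stretch of DNA against Input reads of another.

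Most genes stayed within 2-fold. The change of J2 enrichment was within 2-fold for 11333 genes (89.6%), with a median of 0.07 and quartiles of -0.32 and 0.46 on the log2 scale. It was at least 2-fold higher for 858 genes, 6.78% of those measured, and at least 2-fold lower for 460 genes, 3.64%. For 182 and 61 of these, respectively, the whole counting interval lay beyond 2-fold. Of all calls 65.1% were on the higher side, and this share was 54.3% with TMM scaling (700 higher and 589 lower), 53.5% with median-of-ratios scaling (692 and 601) and 54.8% with totals that included the mitochondrial chromosome (707 and 582). These scalings moved the median of all genes to between -0.02 and -0.01. The excess of higher over lower calls thus depended in part on the scaling.

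A gene's J2 level and its Input level moved largely together. Across the 12651 genes the log2 changes in J2 and in Input had a Pearson r of 0.83 (Spearman 0.77), and log2 enrichment in DMSO and in MPS1i had an r of 0.74 (Spearman 0.65). Genes are not independent replicates, and every point comes from the same 4 libraries. At least 2-fold J2 enrichment was seen for 770 genes in DMSO and 854 in MPS1i, with 446 in both. At least 2-fold depletion was seen for 1713 and 1348 genes, with 823 in both. No gene went from enriched to depleted, and 7 went from depleted to enriched, namely C19orf54, CLDN5, FAM184A, HTRA1, LRPAP1, MED23 and SNORD1A (those not among the leading genes are named after their values were seen).

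Genes arrived at a higher change by different routes. Of the 858 higher genes, 391 were at least 2-fold up in J2 alone and 220 at least 2-fold down in Input alone. A further 3 did both, and 244 did neither and passed by the sum of smaller differences. Of the 460 lower genes, 246 were at least 2-fold down in J2 alone and 92 at least 2-fold up in Input alone, with 0 doing both and 122 neither. Calls were more frequent where counts were few. In 5 equal groups by counts, 14.0% were higher and 6.78% lower in the group with the fewest (204 to 444 over the 4 libraries), and 2.41% and 1.58% in the group with the most.

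**Figure D1:**
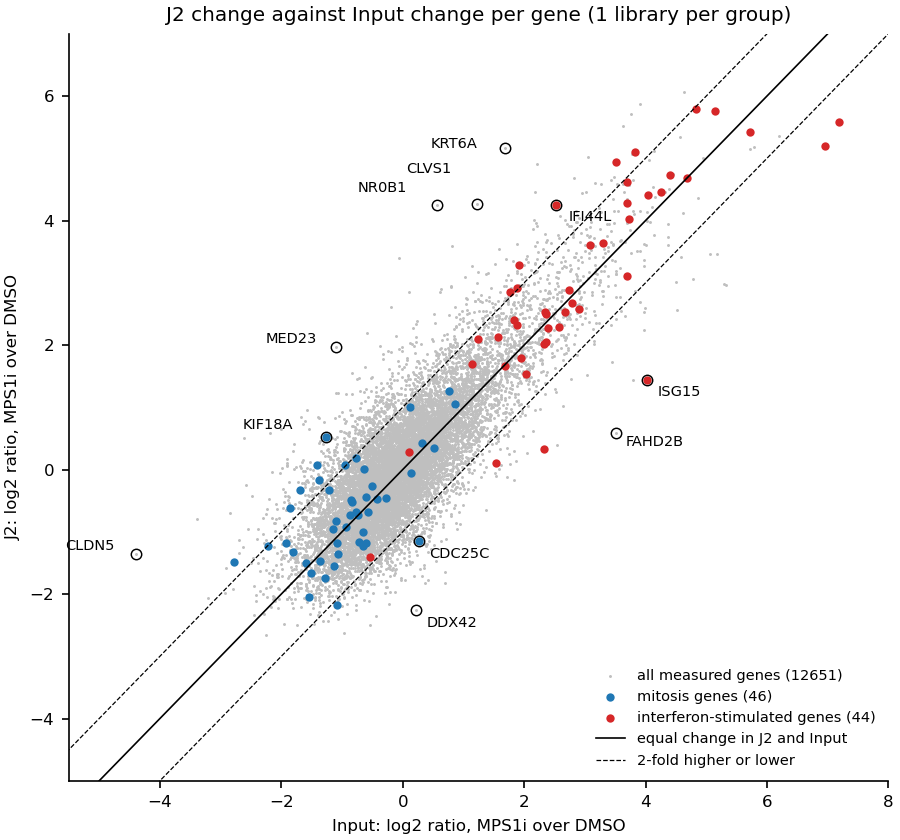
Each point is a gene, with the log2 ratio of MPS1i over DMSO in Input on the x axis and in J2 on the y axis; interferon-stimulated genes are red, mitosis genes blue, other genes grey, and circled genes are named. Most points lie between the dashed 2-fold lines, where 89.6% of the 12651 genes fall, and the 44 interferon-stimulated genes run far up the diagonal while the 46 mitosis genes lie mostly below 0 on both axes.

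Interferon-stimulated genes, the antiviral effectors switched on by interferon signalling, had the largest median change of the 24 lists in each kind of library, and on balance these cancelled. Of 57 listed genes 44 were measured, and 40 of them were at least 2-fold up in both J2 and Input. Their median was 2.76 in J2 and 2.62 in Input on the log2 scale, against -0.02 and -0.10 over all genes. This left a median change of enrichment of 0.18 against 0.07 over all genes. The share of all genes past 2-fold within J2 or within Input is not given here, nor for the later lists. The change was higher for 6 of the 44 (6.78% of all genes were), lower for 5 (3.64% of all genes) and within 2-fold for 33. With median-of-ratios scaling 4 were higher and 5 lower, and after thinning, as with a pseudocount of 5, 7 and 3. Over the 30 genes measurable on their own strand 5 were higher and 2 lower, at a median of 0.16. With at most 1 read counted per region only 11 were measurable, of which 0 were higher and 1 lower.

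The promoters of the genes at the 2 ends of the list are shown because interferon switches on both, while their J2 enrichment moved in opposite directions. They are RefSeq windows of GRCh38.p14 from 250 bases before to 50 bases after the start, on the plus strand, at chr1:1013247-1013546 for ISG15 and chr1:78620198-78620497 for IFI44L. Capitals mark matches to GAAANNGAAA on either strand, the core of the interferon-stimulated response element.
ISG15: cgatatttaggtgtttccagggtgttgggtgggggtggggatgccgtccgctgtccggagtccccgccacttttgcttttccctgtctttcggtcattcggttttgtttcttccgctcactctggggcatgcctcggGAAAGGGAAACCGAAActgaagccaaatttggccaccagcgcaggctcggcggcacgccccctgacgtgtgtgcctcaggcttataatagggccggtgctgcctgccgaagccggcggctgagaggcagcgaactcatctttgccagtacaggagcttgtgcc
IFI44L: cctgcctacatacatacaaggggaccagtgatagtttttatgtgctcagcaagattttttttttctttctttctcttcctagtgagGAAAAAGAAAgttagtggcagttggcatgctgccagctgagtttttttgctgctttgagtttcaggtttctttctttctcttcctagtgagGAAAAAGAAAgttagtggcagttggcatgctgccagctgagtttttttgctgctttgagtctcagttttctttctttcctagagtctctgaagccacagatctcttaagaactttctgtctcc
Each window holds 2 matches. The motif is present in 24 of the 35 measured interferon-stimulated genes that have a window (68.6%) and in 1255 of all 35116 windows (3.57%). A match describes these letters and does not show a bound site.

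IFI44L, an interferon-induced GTP-binding protein, was the highest of the list. Its Input counts were 43 with DMSO and 199 with MPS1i, and its J2 counts 31 and 410. Its J2 enrichment thus went from -1.48 in DMSO to 0.26 in MPS1i, a change of 1.74 (interval 1.03 to 2.44) that was 1.86 on the gene's own strand and 1.64 without the most-read region of each table. Its most-read Input and J2 regions overlap in an intron, at chr1:78630823-78631265 and chr1:78630579-78631417. SAMD9, a growth-restricting antiviral factor, had 53 and 490 counts in Input and 63 and 1329 in J2 (DMSO, then MPS1i), a change of 1.42. Of its J2 counts 70.5% were annotated as intergenic, and on its own strand the change was 0.69. OAS1, an enzyme that makes the activator of RNase L upon binding dsRNA, had 128 and 388 counts in Input and 44 and 294 in J2, a change of 1.36 that was 1.12 on its own strand. The other higher members, named after their values were seen, were OAS2 (1.27), HERC5 (1.09) and DDX60L (1.04).

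ISG15, a ubiquitin-like modifier, was the lowest of the list. It had 28 and 370 counts in Input but 80 and 149 in J2, so that Input went up by 4.02 and J2 by 1.45 on the log2 scale, a change of -2.58 (interval -3.25 to -1.90). The 2 tables read different sequence here. The most-read Input region, chr1:1013355-1014699 on the minus strand, lies over the gene body opposite to the gene, with 12 and 146 counts. The most-read J2 region, chr1:1009029-1009463 on the plus strand, carries an MLT1C and an AluY repeat upstream of the promoter printed above, is annotated as intergenic although GENCODE's span of the gene reaches over it, and holds 72.1% of the J2 counts with 51 and 114. IFI27, a mitochondrial apoptosis regulator, had 61 and 246 counts in Input and 98 and 84 in J2, a change of -1.99, and its most-read J2 region lay 10.7 kb from the gene's start, outside the gene. RTP4, a chaperone of receptors, had 1 and 149 counts in Input and 15 and 388 in J2. Its change of -1.76 has an interval from -4.19 to 0.67, because 1 count stands for DMSO Input. The other lower members, named after their values were seen, were MX2 (-1.61, interval -3.73 to 0.51) and HELZ2 (-1.42, interval -1.99 to -0.86).

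Between these ends lay members that were within 2-fold although both libraries had moved far. PARP9, a partner of the ubiquitin ligase DTX3L, had 912 and 3745 counts in Input and 3053 and 11731 in J2, a change of 0.14. MX1, an antiviral GTPase, had 150 and 1599 counts in Input and 257 and 2851 in J2, a change of 0.29. IFIT5, which binds viral RNA ends, had 70 and 1987 counts in Input and 118 and 4398 in J2, a change of 0.63. These 3 were chosen after their values were seen, to show members whose J2 and Input levels changed by like amounts. Their log2 changes in J2 and Input were 2.49 and 2.36 for PARP9, 4.02 and 3.73 for MX1, and 5.77 and 5.14 for IFIT5.

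**Figure D2:**
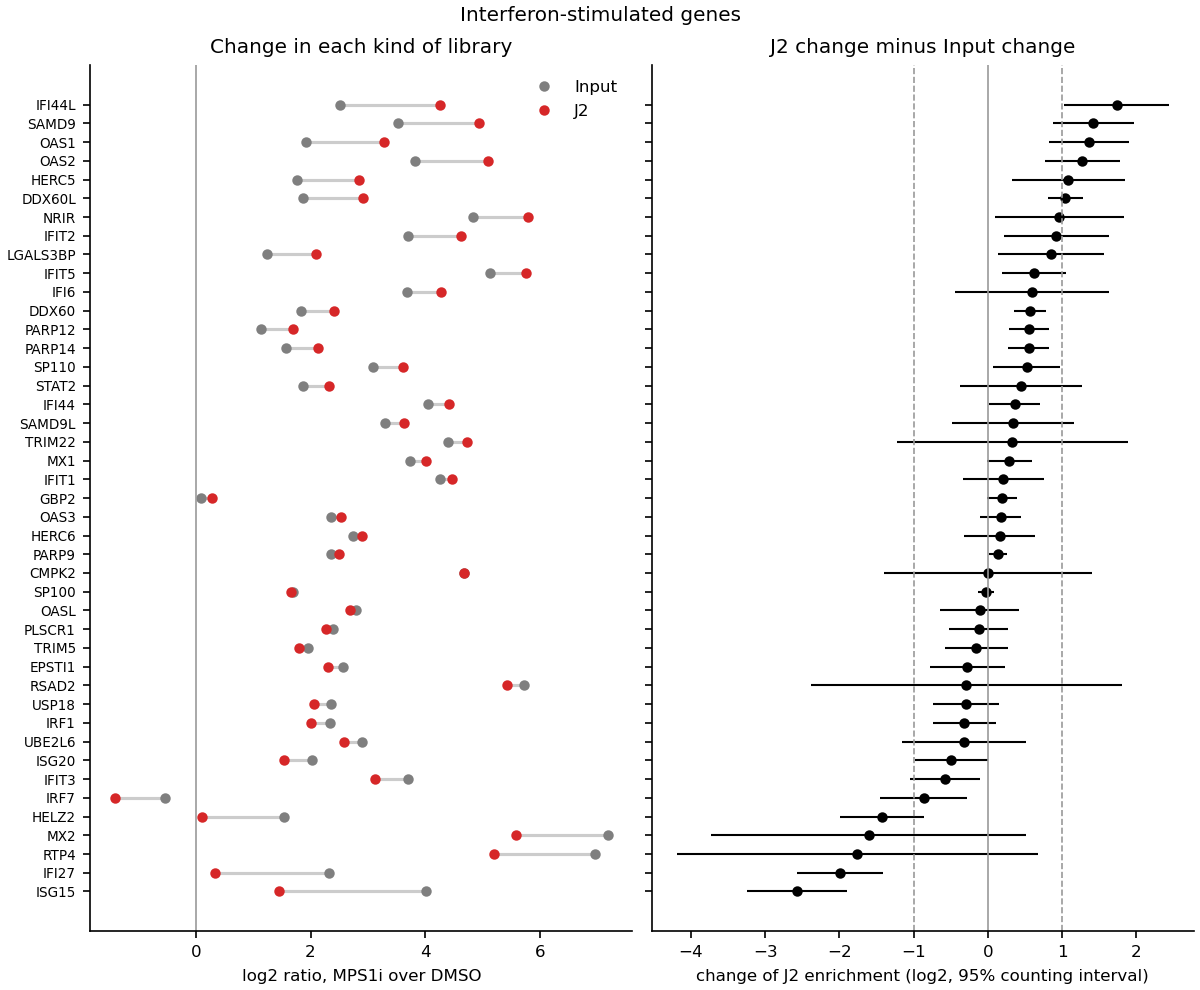
For 43 of the 44 measured interferon-stimulated genes, the left panel gives the log2 ratio of MPS1i over DMSO in Input (grey) and J2 (red), and the right panel the change of J2 enrichment with its 95% counting interval; dashed lines mark 2-fold. The red and grey points are mostly both right of 1, and 32 of the genes drawn lie within the dashed lines.

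The genes of RNA sensing, which bind dsRNA or pass on its signal, stayed within 2-fold in J2 enrichment with 1 exception, and 89.6% of all genes did so. Of 23 measured genes (30 listed), 0 were higher (6.78% of all genes were) and 1 was lower (3.64% of all genes). Their median was 0.04. TICAM1, the adaptor of the endosomal dsRNA receptor TLR3, had 142 and 151 counts in Input and 347 and 139 in J2, a change of -1.17 (interval -1.61 to -0.74) that was -1.28 on its own strand. DDX58 (RIG-I) had 527 and 2620 counts in Input and 948 and 2201 in J2, a change of -0.87. A 146-base intronic region, chr9:32466441-32466586, held 78 and 1138 of the Input counts, and a long region on the opposite strand 540 and 172 of the J2 counts. Without these most-read regions the change was 0.82, and on the gene's own strand -0.10. IFIH1 (MDA5), the sensor of long dsRNA, had 182 and 903 counts in Input and 327 and 2109 in J2, a change of 0.61. On its own strand IFIH1 was at 0.58.

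The enzymes and binding proteins that limit or answer dsRNA lay near the middle. ADAR, which edits dsRNA and is itself interferon-induced, had 619 and 1132 counts in Input and 924 and 1068 in J2, a change of -0.43. EIF2AK2 (PKR), which stops translation when it binds dsRNA, had 333 and 779 counts in Input and 841 and 1373 in J2, a change of -0.29. ZC3HAV1 (ZAP), which binds CpG-rich viral RNA, had 1367 and 3068 counts in Input and 1030 and 1416 in J2, a change of -0.48. Higher values short of 2-fold were those of ILF2 (0.96), the editing enzyme ADARB1 (0.69), DICER1 (0.68) and the kinase IKBKE (0.53). MAVS (-0.33), TBK1 (-0.23), TRAF3 (-0.46), TRAF6 (-0.07), TRIM25 (0.18), RNF135 (0.08), PNPT1 (0.27), SUPV3L1 (0.07), PRKRA (0.19), STAU1 (0.04), DROSHA (0.33) and DGCR8 (-0.07) also lay within 2-fold. For ILF2, 82.3% of the J2 counts lay in regions that carry an Alu. Of the 6 measured genes of DNA sensing, 0 were higher or lower (89.6% of all genes were neither), with AIM2 at 0.91, TREX1 at 0.83, IFI16 at 0.55 and SAMHD1 at -0.81.

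Mitosis genes showed the reverse picture in the libraries, with less RNA in both for most members. Of 46 measured genes (50 listed), 18 were at least 2-fold down in J2 and 21 in Input. At least 2-fold up were 3 in J2 and 0 in Input. Medians were -0.70 in J2 and -0.90 in Input, against -0.02 and -0.10 over all genes. The change of enrichment was higher for 7 (15.2%, against 6.78% of all genes), lower for 2 (4.35%, against 3.64%) and within 2-fold for 37. The median was 0.12, and -0.15 over the 13 genes measurable in matched regions. In the 3 highest members Input counts dropped more than J2 counts. KIF18A, a kinesin that limits chromosome oscillation, had 200 and 66 counts in Input but 177 and 173 in J2, a change of 1.79. ASPM, a spindle pole protein, had 580 and 174 counts in Input and 555 and 400 in J2, a change of 1.49. CENPF, a kinetochore protein, had 564 and 140 counts in Input and 412 and 224 in J2, a change of 1.36. These 3 values were 1.79, 1.35 and 1.16 on the genes' own strand. CCNB1 (1.30), KIF14 (1.23), PLK1 (1.22) and AURKB (1.02), named after their values were seen, were the other higher ones.

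CDC25C, the phosphatase that starts mitosis, had 110 and 106 counts in Input and 336 and 103 in J2, a change of -1.42. BUB1B, a checkpoint kinase, had 104 and 39 counts in Input and 315 and 47 in J2, a change of -1.10. TTK itself, the target of the inhibitor, had 268 and 92 counts in Input and 557 and 301 in J2, a change of 0.88 (interval 0.48 to 1.28). The inhibitor acts on the kinase and not on its RNA, so these counts do not check the labels. DNA replication genes were likewise lower in both kinds of library (medians -0.76 in J2 and -0.88 in Input). Of 39 measured (50 listed) 2 were higher (5.13%, against 6.78% of all genes) and 0 lower (3.64% of all genes were). Both higher ones are subunits of the replicative helicase, MCM3 (223 and 72 counts in Input, 95 and 110 in J2, a change of 2.06) and MCM6 (1.06). The median of the list was -0.09.

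Targets of p53, the transcription factor that answers chromosome missegregation and DNA damage, were mostly higher in each library, with none past 2-fold in enrichment. Of 19 measured genes (24 listed), 9 were at least 2-fold up in both J2 and Input and 1 was at least 2-fold down in J2. Medians were 1.16 in J2 and 0.82 in Input, against -0.02 and -0.10 over all genes. The change was higher for 0 (6.78% of all genes were) and lower for 0 (3.64% of all genes), with a median of -0.06. CDKN1A, the cell cycle inhibitor p21, was the highest, with 390 and 656 counts in Input and 42 and 114 in J2, a change of 0.91. PPM1D, a phosphatase that turns p53 signalling off, was the lowest at -0.87. Replication-dependent histones gave 0 calls among 7 measured genes, where 89.6% of all genes had no call. Their medians were 1.47 in J2 and 1.12 in Input.

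Ribosomal protein genes held the largest share of higher members among lists of 10 or more measured genes. Of 19 measured (44 listed) 4 passed 2-fold upwards (21.1%, against 6.78% of all genes) and 1 downwards (5.26%, against 3.64%), and the median was 0.27. On the genes' own strand the direction of the median turned, with 2 higher and 2 lower of 9 and a median of -0.47, and with at most 1 read per region 0 of 4 were called at a median of -0.12. RPS3A had 147 and 168 counts in Input and 29 and 113 in J2, a change of 1.98. RPL7 had 212 and 184 counts in Input and 113 and 318 in J2, a change of 1.92. RPS24 (1.46) and RPS16 (1.12), the second named after its value was seen, were the other higher ones, and RPL13, with 79 and 58 counts in Input and 96 and 21 in J2, was lower at -1.49. Such genes have many processed pseudogenes, so their counts are uncertain where reads map to several places.

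Long noncoding RNAs had a median of 0.40, with 2 higher (10.5%, against 6.78% of all genes) and 0 lower (3.64% of all genes were) of 19 measured. The median was 0.12 over 9 genes on their own strand, 0.16 after thinning, -0.01 with at most 1 read per region and -0.35 with a minimum of 400 counts, so its direction depended on the setting. MALAT1 had 68 and 90 counts in Input and 36 and 112 in J2, a change of 1.45. None of these counts lay on the strand of MALAT1 within the gene, and the most-read region of each table lay on the minus strand just before its start. MIR31HG, the host of miR-31, had 465 and 342 counts in Input and 596 and 868 in J2, a change of 1.22 that was 1.41 on its own strand. Genes known for pairs of inverted Alu elements in their 3' UTR, classic substrates of ADAR, had a median of -0.04. Of 28 measured, 1 was higher and 1 lower (3.57% each, against 6.78% and 3.64% of all genes). The higher one was MRPS16, a mitochondrial ribosomal protein, with 131 and 27 counts in Input and 272 and 138 in J2, a change of 1.51 from reads that lay mostly opposite to the gene (80.2% of J2). The lower one was LYRM7 (63 and 56, then 323 and 119), a complex III assembly factor, at -1.04.

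In the other lists, apart from the cell type markers described next, between 0 and 11.1% of members were higher, against 6.78% of all genes. Between 0 and 5.26% were lower, against 3.64%. KRAB zinc finger genes, repressors of transposons, had 0 of 20 in either direction with a median of 0.00, and genes of transposon silencing and DNA methylation 1 higher and 1 lower of 20. Splicing and hnRNP genes had 3 higher and 1 lower of 33, led by HNRNPA2B1 with 271 and 172 counts in Input and 126 and 295 in J2, a change of 2.11. Genes of the integrated stress and unfolded protein response had 1 higher of 18, the chaperone HSPA5, with 126 and 32 counts in Input and 162 and 123 in J2, a change of 1.79. Among 12 inflammatory and NF-kB genes the chemokine CXCL2 alone was higher (31 and 152 in Input, 11 and 131 in J2, a change of 1.47). Among 9 antigen presentation genes HLA-E alone was higher (95 and 132 in Input, 24 and 129 in J2, a change of 2.16), but 73.9% of its J2 counts and 82.8% of its Input counts were annotated as intergenic. Housekeeping genes had 2 higher of 25, TGF-beta signalling 1 of 23, detoxification genes linked to NRF2 1 of 27 (NR0B1, described below) and autophagy 1 lower of 19.

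The lung epithelium list had 8 of 25 genes measured and none past 2-fold (89.6% of all genes were within it), with a median of 0.01. Its summed level was 1350 and 1810 CPM (counts scaled to a common library total) in Input and 281 and 405 in J2 (DMSO, then MPS1i). Lists of other cell types were sparse, with 4 of 15 fibroblast, 1 of 15 leukocyte and 3 of 10 endothelial markers measured, and no listed gene was at 0 in all 4 libraries. The fibroblast list summed to 154 and 264 CPM in Input and 167 and 276 in J2, the leukocyte list to 36.7 and 78.4 and to 37.7 and 86.9, and the endothelial list to 215 and 146 and to 351 and 167. Their part in the results was not tested. FAP, a fibroblast protease, had 36 and 324 counts in Input and 36 and 646 in J2, a change of 1.22 that was -0.31 on its own strand. CLDN5, a junction protein of endothelium, had 144 and 5 counts in Input and 110 and 29 in J2, a change of 3.04 whose interval, 1.68 to 4.40, is wide because 5 counts stand for MPS1i Input.

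**Figure D3:**
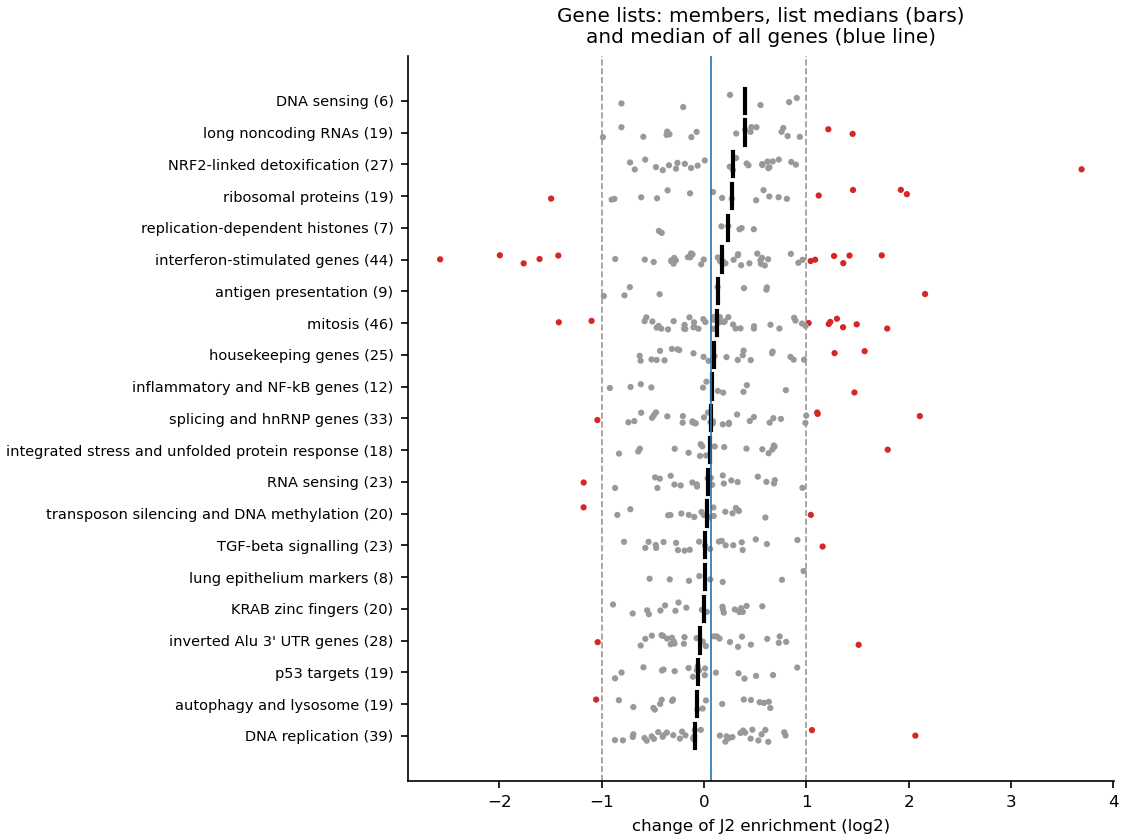
Each point is a measured gene placed by its change of J2 enrichment on the x axis (log2), with red points at least 2-fold higher or lower, 1 row per list with 6 or more measured genes and their number in brackets. The black bars, the list medians, lie between -0.09 and 0.40, close to the blue line at the median of all genes, 0.07.

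The leading genes were ordered by the end of the counting interval nearer to 0. At the higher end stood NR0B1 (DAX1), a nuclear receptor that represses steroid synthesis, with 257 and 304 counts in Input and 25 and 331 in J2, a change of 3.69 (interval 3.06 to 4.32). The J2 reads that appeared with the inhibitor lay mostly outside the gene, where 86.5% of its J2 counts were annotated as intergenic. The most-read J2 region, chrX:30286594-30287050 with 1 and 22 counts, was 22.6 kb from the start, while 60.4% of the Input counts lay in the region chrX:30308092-30308196 with 209 and 130 counts. Without these regions the change was 2.04. CLVS1, a lipid-binding vesicle protein, had 500 and 933 counts in Input and 101 and 1326 in J2, a change of 3.04, with 91.0% of its J2 counts opposite to the gene. It was 1.52 on its own strand, 0.97 without the most-read regions and 0.29 with at most 1 read per region.

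The next genes differed in where the change came from. BAAT, which joins bile acids to amino acids, had 1481 and 2072 counts in Input and 49 and 408 in J2, a change of 2.79. Of its Input counts 95% lay in a 144-base region, chr9:101390850-101390993, and without the most-read regions the change was 1.02. KRT6A, a stress keratin, had 33 and 86 counts in Input and 5 and 134 in J2, a change of 3.47. CDR1 had 60 and 46 counts in Input and 14 and 104 in J2, a change of 3.46, with none of its J2 counts on either strand of the gene body. TMEM17, a protein of the ciliary base, had 140 and 120 counts in Input and 53 and 262 in J2, a change of 2.75, with 89.8% of J2 annotated as intergenic.

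The next 3 leading genes were read almost wholly inside their own introns and mostly on their own strand. MED23, a subunit of the Mediator complex, had 89 and 33 counts in Input and 46 and 123 in J2, a change of 3.06 that was 3.02 on its own strand and 2.66 without the most-read regions. CAPRIN2, an RNA-binding protein, had 69 and 48 counts in Input and 29 and 123 in J2, a change of 2.82 that was 2.77 and 3.09. CEP290, a centrosome protein, had 181 and 81 counts in Input and 111 and 222 in J2, a change of 2.38 that was 2.46 and 2.44. In each of these 3 genes J2 counts were more and Input counts fewer with the inhibitor. In HTRA1 and LRPAP1 the reads were more mixed, with 81.6% and 58.8% of J2 counts on the gene's strand. HTRA1, a secreted protease, had 66 and 35 counts in Input and 43 and 136 in J2, a change of 2.79. LRPAP1, a chaperone of LDL receptors, had 99 and 17 counts in Input and 67 and 69 in J2, a change of 2.78.

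The names SNORD1A (156 and 20 in Input, 75 and 73 in J2, a change of 3.12) and SNORA46 (177 and 35, then 87 and 93, a change of 2.65) are small nucleolar RNAs, but none of their counts overlapped the annotated gene itself on either strand. GHRH (254 and 65, then 491 and 555) was at 2.36 and MYLK4 (244 and 151, then 140 and 380) at 2.36. Of the 15 leading higher genes 11 were at least 2-fold up in J2 and 5 at least 2-fold down in Input.

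At the lower end many leading genes had most of their Input counts in 1 region. In 8 of the 15 leading lower genes 1 region held over 50% of the MPS1i Input counts, against 3 of the 15 leading higher genes. This contrast is for MPS1i Input only, and the trait is not particular to the lower end. In DMSO Input 1 region held 81.3% for NR0B1, 90.2% for CLVS1, 73.3% for CDR1, 98.4% for BAAT and 69.9% for SNORD1A, all leading higher genes. Over 50% in at least 1 of the Input libraries, a wider measure, held for 14.3% of all measured genes. It held for 15.4% of all higher and 21.3% of all lower genes. DDX42, an RNA helicase of the spliceosome, had 1526 and 1418 counts in Input and 685 and 97 in J2, a change of -2.48. A 50-base intronic region, chr17:63799540-63799589, held 1303 and 1374 of the Input counts, and without the most-read regions the change was -0.22. SET, a histone chaperone, had 28329 and 35138 counts in Input and 822 and 254 in J2, a change of -1.77. Of its Input counts 99.0% lay in a 193-base intronic region with a FLAM_A repeat, chr9:128692981-128693173, and over regions matched between the tables the change was 0.25. The change of SET was past 2-fold in 15 of the 18 other settings in which it was measured. Settings that alter only the scaling or the count minimum keep this FLAM_A region, so that number is no check on it. LINC00641 had 9043 and 8859 counts in Input and 6472 and 1463 in J2, a change of -1.88, with 84.9% of Input in a region only 2 bases long. On its own strand the change was 0.87. In these 3 genes J2 counts were lower with the inhibitor, while the scaled Input level, made up mostly of 1 region, was somewhat higher (log2 changes of 0.21, 0.63 and 0.29).

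In the next 3 lower genes, as in C14orf178 below, the value stayed past 2-fold without the most-read regions. YWHAQ, a 14-3-3 adaptor, had 346 and 272 counts in Input and 1156 and 235 in J2, a change of -1.72 that was -1.67 without the most-read regions and -1.75 on its own strand. SFI1, a centriole protein, had 58 and 75 counts in Input and 200 and 43 in J2, a change of -2.34 that was -1.98 and -2.20. LINC01591 had 12 and 139 counts in Input and 65 and 121 in J2, a change of -2.36 that was -2.28 without the most-read regions. No value without the most-read regions could be had for the next 2 genes, which had too few counts left. For FAHD2B (10 and 95, then 82 and 84, a change of -2.92), the lowest gene measured, and for MIR3189 (34 and 161, then 90 and 81, a change of -2.15) Input went up far more than J2, by 3.51 against 0.59 and by 2.55 against 0.40 on the log2 scale.

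Other leading lower genes were LOC105447645 (54 and 58, then 207 and 41, a change of -2.19), LOC103021295 (2028 and 2093, then 940 and 181, a change of -2.19) and C14orf178 (256 and 262, then 274 and 64, a change of -1.89). MAP1LC3A, an autophagosome protein (387 and 319, then 551 and 109), was at -1.82 and UBAP1, an ESCRT subunit (3523 and 3658, then 2140 and 636), at -1.57. Without the most-read regions MAP1LC3A and UBAP1 were at 0.19 and -0.50, LOC103021295 at -0.45 and C14orf178 at -1.26. Of the 15 leading lower genes 11 were at least 2-fold down in J2 and 4 at least 2-fold up in Input.

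**Figure D4:**
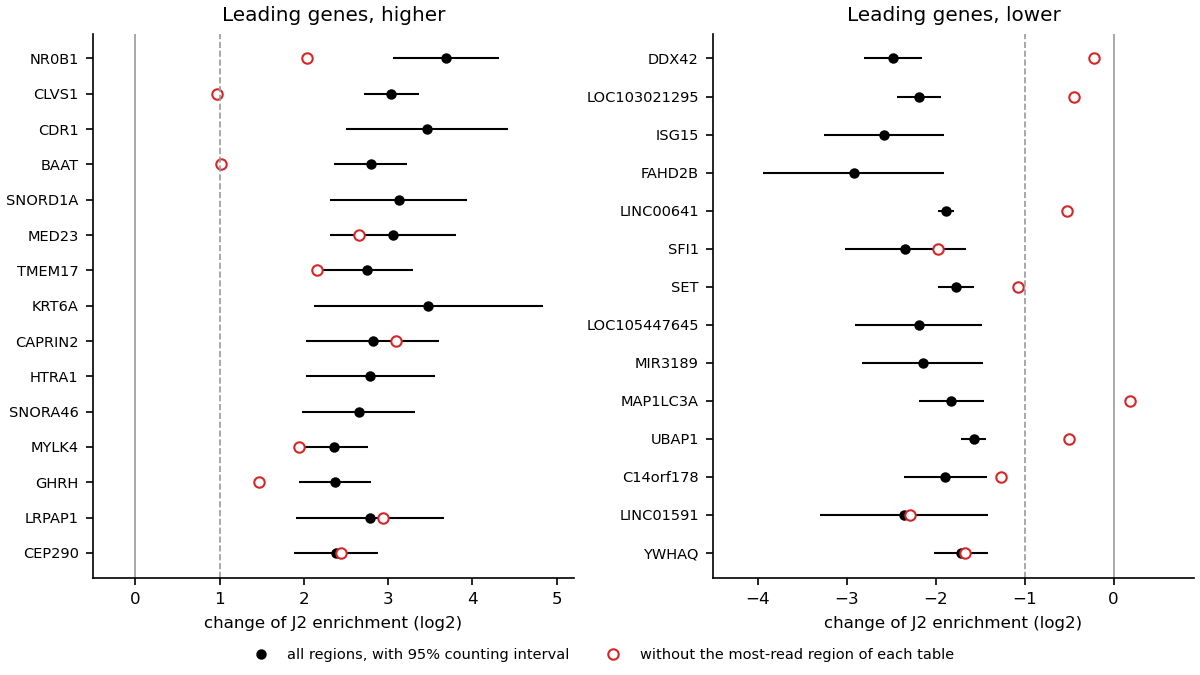
Black points give the change of J2 enrichment (log2, x axis) of the 15 leading higher and 14 of the 15 leading lower genes with 95% counting intervals, and open red circles the value without the most-read region of each table, where counts still reached the minimum. At the lower end the circles of DDX42, LOC103021295, LINC00641, UBAP1 and MAP1LC3A lie right of the dashed 2-fold line, at -0.22, -0.45, -0.52, -0.50 and 0.19.

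Alu repeats, a main source of dsRNA in human transcripts, were slightly less J2-enriched with the inhibitor. Regions with Alu as their only repeat family had 367559 and 286007 counts in Input and 987970 and 532869 in J2, a change of -0.30. The change was -0.17 for L1, -0.15 for ERV1, -0.33 for SVA, 0.11 for L2, 0.10 for MIR and 0.07 for regions without a repeat. The Alu value was -0.15 without the 100 most-read regions of each table, an alternative chosen after seeing the data, and -0.15 over matched regions. Of 18 Alu subfamilies with enough counts 17 were below 0, from -0.996 for FLAM_A to 0.03 for FLAM_C. The counting intervals of AluSq2 (-0.05 to 0.04), AluJr4 (-0.08 to 0.05) and FLAM_C (-0.04 to 0.11) included 0. Subfamilies come from the same 4 libraries and are not independent. FLAM_A had 31568 and 37305 Input counts, of which the SET region described above gave 27896 and 34928. Without the most-read region of each subfamily, also chosen after seeing the data, 16 of 18 were below 0, from -0.24 to 0.07.

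The strand opposite to the named gene had higher changes than the gene's own. Whether opposite-strand counts are RNA made from that strand was not tested. For RN7SK, described below, 99.3% of the Input counts lay in a region on the opposite strand. Summed over the strand of the named gene the change was -0.07, over the opposite strand 0.28 and outside the named gene 0.02. Regions carrying an Alu, alone or beside other repeats, were at -0.11 in all, at -0.34 on the gene's strand and at 0.32 on the opposite strand. Repeat-free regions were at 0.00 and 0.35. Without the most-read region of each such class, an alternative chosen after seeing the data, these 4 values were -0.23, 0.31, 0.01 and 0.29, and the opposite strand as a whole was at 0.27. Opposite-strand regions with Alu as their only repeat family were at 0.02, so the 0.32 came mostly from regions that hold several families. In 870 genes measured on both strands the median was 0.01 on the gene's strand and 0.28 on the opposite one, and the opposite strand was above the gene's strand in 538 (61.8%). With the inhibitor the opposite-strand level changed by 0.39 in J2 and 0.11 in Input, and the gene-strand level by -0.25 and -0.19. J2 enrichment on the opposite strand nevertheless stayed below the gene's strand, at -0.58 in DMSO and -0.30 in MPS1i against 0.04 and -0.03.

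By annotation the division was uneven. Regions annotated as exon had a change of 0.40, but 78.9% of their DMSO Input counts lay opposite to the named gene and only 2.59% on its strand. Whether regions over exons of the same strand were left out before deposit is not given in the sources used here, so the exon and gene-strand values may leave out spliced RNA of the named genes. For exons the change was 0.49 on the opposite and -0.31 on the gene's strand, for promoter regions 0.49 and -0.11, and for introns 0.28 and -0.08. Regions of the 3' UTR, at 0.33 and 0.30, differed little between strands, and non-coding exons went the other way, at 0.03 and 0.17. Without the most-read region of each class exons were at 0.27 and -0.13, promoter regions at 0.23 and -0.11, and non-coding exons at 0.18 and 0.21. With at most 1 read per region the exon value was -0.16, so the higher exon value rests on regions with more than 1 read. The most-read opposite-strand promoter region bears the name RN7SK, given here after its value was seen. The 7SK RNA gene had 7953 and 1691 counts in Input and 121 and 89 in J2, a change of 2.02, but 99.3% of the Input counts lay in a region on the strand opposite to the gene, chr6:52995618-52995957.

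**Figure D5:**
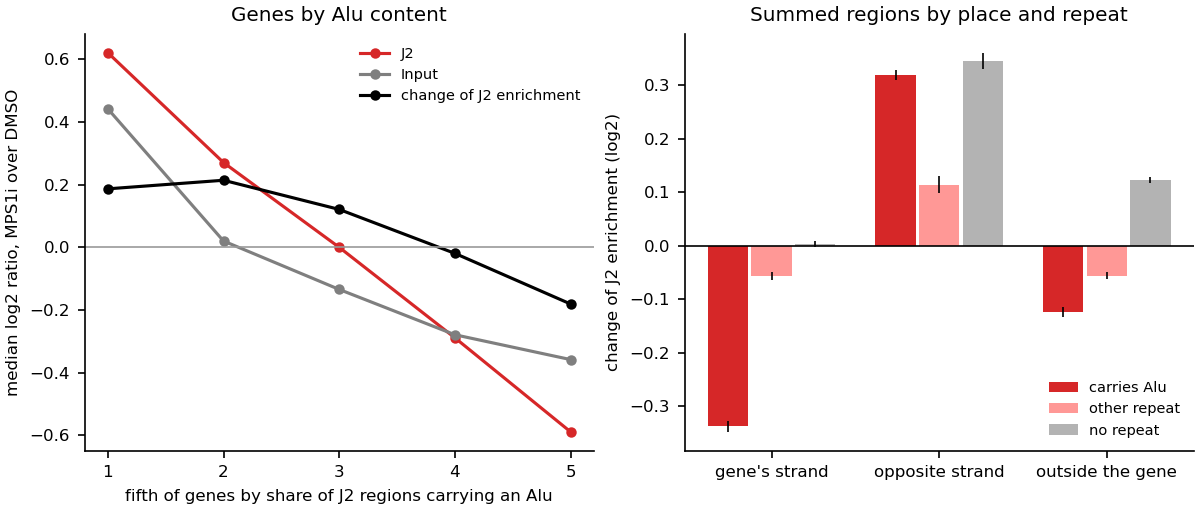
Left, the median log2 ratio of MPS1i over DMSO in J2 (red), Input (grey) and their difference (black) for genes in 5 equal groups by the share of their J2 regions that carry an Alu; right, the change of J2 enrichment of summed regions by place and repeat, with 95% counting intervals as lines on the bars. The black line goes from 0.19 in the Alu-poorest to -0.18 in the Alu-richest group, and the bars for Alu are at -0.34 on the gene's strand and 0.32 on the opposite strand.

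Genes rich in Alu repeats had lower changes of enrichment. In 5 equal groups by the share of J2 regions that carry an Alu, the median change was 0.19 in the group with the smallest share, with 9.96% higher and 1.54% lower. In the group with the largest share it was -0.18, with 2.92% higher and 7.75% lower. The Spearman correlation across 12651 genes was -0.25. The same groups ran from 0.62 to -0.59 in J2 and from 0.44 to -0.36 in Input, so Alu-rich genes were lower in both kinds of library and more so in J2. Within genes the difference was smaller. In 2289 genes with enough counts in both, Alu-carrying regions were lower than repeat-free regions of the same gene in 52.3%, with a median difference of -0.04, and in 409 genes on their own strand in 58.7%, with a median of -0.11.

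Alu content goes with base composition and gene density, and the change went with all of them. From the lowest to the highest of 5 groups by transcript GC content the median went from 0.19 to -0.05, and from the fewest to the most protein-coding genes within 1 Mb from 0.14 to -0.10. With genes cut into 3 groups by each, the median in the low-GC group was 0.23 for genes with few and -0.01 for genes with many Alu regions, and in the high-GC group 0.17 and -0.18. Gene length showed little, with medians of 0.05 in the shortest of 5 groups and 0.03 in the longest. Chromosome 19, dense in genes and Alu repeats, was the lowest with a median of -0.26 over 480 genes (2.92% higher and 9.17% lower), followed by chromosome 22 (-0.18) and 16 (-0.16). Chromosome 4 was the highest with 0.22 over 614 genes (9.93% and 1.47%), followed by chromosome 3 (0.20).

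Regions that both tables share avoid the comparison of different sequence. Of 159761 pairs matched on the same strand with at least 90% reciprocal overlap, 7383 had at least 50 counts in J2 and 20 in Input. The change was at least 2-fold higher in 1384 (18.7%) and lower in 696 (9.43%), with a median of 0.19, on fewer counts than the genes. An intronic region on the strand of ABCC2, a drug export pump, chr10:99805447-99805910, had 38 and 1 counts in Input and 1710 and 2111 in J2, a change of 5.22 (interval 2.86 to 7.57). Its scaled J2 level was higher by 0.86 and its Input level rested on 1 count with the inhibitor. A region opposite to IDH2, chr15:90085282-90102340, had 36 and 18 counts in Input and 2 and 48 in J2, a change of 5.49. A region opposite to PHF19 had 48 and 0 counts in Input and 23 and 33 in J2, and with the floor of 3 counts for the 0 its change was at least 4.76. The other 2 leading higher regions bore the names UHMK1 (3.82) and ENDOV (3.91).

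The leading lower regions had few J2 counts left with the inhibitor. In an intron of SLC35F3, chr1:233982711-233983125 had 53 and 110 counts in Input and 50 and 5 in J2, a change of -4.01. In an intron of APTX, a DNA repair enzyme, chr9:33023608-33024174 had 20 and 40 counts in Input and 52 and 6 in J2, a change of -3.77. An AluJb region in an intron of UBE2R2, a ubiquitin-conjugating enzyme, had 11 and 27 counts in Input and 77 and 12 in J2, a change of -3.66. Regions named for LINC02091 (-3.87) and LOX (-3.92) were intergenic. Among matched regions of single families the medians were 0.05 for Alu (484 regions) and 0.11 for repeat-free regions (2404), and 0.30 for regions with several repeats (3097).

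At the 2-fold threshold itself LINC00383 (39 and 79 counts in Input, 55 and 190 in J2) and SNORD137 (85 and 115, then 57 and 132), both at 1.00, were just counted as higher, and HNRNPLL (321 and 177, then 690 and 649) and BTAF1 (620 and 259, then 1291 and 920), also 1.00 when rounded, were just outside. On the lower side LOC101928098 (141 and 128, then 500 and 193) and MGA (182 and 115, then 261 and 70) were just inside, and TJAP1 (120 and 132, then 248 and 116) and ABCF1 (96 and 98, then 386 and 168) just outside.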

How the data were processed

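The authors deposited raw counts, whole-number reads per stranded region, with the Input pair and the J2 pair in separate tables, on GRCh38 (hg38) per the submitters' processing notes. These notes name STAR, featureCounts, HOMER and the trimmers cutadapt, Trim Galore and Trimmomatic, in no stated role. How regions were called and how multimapping reads and duplicates were treated is not given in the sources used here. Per the file headers each region carries a HOMER annotation, nearest gene and repeat. Coordinates are as deposited.

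Here counts outside the mitochondrial chromosome were summed per Gene Name, scaled by the remaining column total, and compared on log2 with a pseudocount of 0.5 (0 counts: a floor of 3). The minimums were 100 counts in each pair (50 in J2 and 20 in Input for matched regions). Intervals are 95% delta-method intervals on the 4 counts. With 1 library per group no count test was possible, and called means at least 2-fold. Strands were taken from GENCODE 29, regions matched with bedtools 2.31.1, and scaling factors from edgeR 4.0.16 (Python 3.11.15, numpy 2.4.6, pandas 2.3.3, matplotlib 3.10.9). The code was tested on simulated data. Named were the 15 genes at each end by the interval bound nearest to 0, up to 3 at each end of 24 lists, all RNA sensing genes, TTK and 5 matched regions at each end. Members and lists were chosen with earlier results of these data known. A few named genes are not reported here.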

Additional observations from a re-analysis of the deposited data

Results flagged for a closer look

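In 3 genes the J2 pair and the Input pair moved past 2-fold in opposite directions, with 1 library on each side, and the difference was not tested. MED23 had 89 and 33 counts in Input (DMSO, then MPS1i) and 46 and 123 in J2, a change of J2 enrichment of 3.06 on the log2 scale. ITM2C had 189 and 70 counts in Input and 97 and 155 in J2, a change of 2.33, and COG2 had 103 and 39 counts in Input and 57 and 92 in J2, a change of 2.31.

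The rows of the mitochondrial chromosome, left out of the sums per gene, showed a signal of their own. They held 1552297 and 979594 counts in Input and 59573 and 55972 in J2, which against the totals of the remaining chromosomes is a change of 0.80 (J2 up by 0.46, Input down by -0.34).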

How the results depend on the processing

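The numbers of higher and lower genes (858 and 460) stayed within 1.5 times under every scaling, under thinning to equal depth, and with a pseudocount of 5. They were 2027 and 1059 with minimums of 50 and 20 counts, 4780 and 2446 with no minimum, and 141 and 89 with a minimum of 400 in each pair, where fewer or more genes were tested. Counting at most 1 read per region left 21 and 12 of 4034 genes, and 18 of 133 higher and 0 of 54 lower genes still measurable remained called. Without the most-read region of each gene 919 were higher and 272 lower of 10968 genes (8.38% and 2.48%). Of the genes called before, 511 of 669 higher and 168 of 337 lower ones remained. On the gene's strand 441 were higher and 327 lower of 5694 genes (7.74% and 5.74%). The opposite strand had 184 and 38 of 1577 genes (11.7% and 2.41%, median 0.21). Alu regions had 187 and 171 of 2750 genes (6.8% and 6.22%), and matched regions 230 and 100 of 3047 (7.55% and 3.28%). The shares over all genes were 6.78% and 3.64% in the main setting. The number of matched regions higher than 2-fold was 235 with a minimum of 100 counts in each pair and 634 after thinning, and the number of matched regions lower was 84 and 287.

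Signs turned for 5 of the named genes past 2-fold, and in at least 1 setting for 36 of those within 2-fold, such as DDX58 at 0.82 without its most-read regions. LOC103021295 was at 0.092 and MAP1LC3A at 0.28 with at most 1 read per region; MAP1LC3A was also at 0.19 without its most-read regions and at 0.62 over repeat-free regions. LINC00641 was at 0.87 on its own strand and 0.096 over Alu regions, FAP at -0.31 on its own strand, and SET at 0.34 on the opposite strand and 0.25 over matched regions. Apart from fewer genes or reads entering, the cause was not tested. No paired analysis was possible because each group has 1 library. Depth limits single genes: the median interval reaches 0.43 to either side, and it covers counting error only.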
